A study of Mus musculus with 3 samples.

Results

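The transcripts described here are those of 10 genes of the unfolded protein response and the integrated stress response: Atf4, Ddit3, Atf3, Asns, Trib3, Xbp1, Herpud1, Atf6, Ern1 and Eif2ak3. They were chosen by name from a table of 54532 genes, of which 22046 were protein-coding. The names matched 11 entries, because Ddit3 has a further short entry (ENSMUSG00000116429) inside its locus with 0 reads in every library. The remaining 10 entries all had reads. RNA came from the hippocampus of 10-month-old mice on a C57BL/6 background, and all 3 groups shared that tissue, age and background. The groups were wild type (WT), PS19, and PS19 heterozygous for loss of Zbp1 (PS19 Zbp1+/-). PS19 mice carry a mutant human tau transgene under the mouse Prnp promoter, and Zbp1 encodes a sensor of Z-form nucleic acids. The design asks how PS19 differs from WT, and whether lower Zbp1 dosage changes that difference.

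Each group was 1 library. No value below has a replicate check, and all intervals cover counting error only. Where 3 values are listed without names, they stand in the order WT, PS19, PS19 Zbp1+/-. Whether a library held RNA of a single animal or of a pool was not given in the sources used here.

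The unfolded protein response starts at sensors in the endoplasmic reticulum (ER) membrane. IRE1 (encoded by Ern1) splices the Xbp1 messenger RNA, ATF6 is cut in the Golgi to release a transcription factor, and PERK (encoded by Eif2ak3) phosphorylates the translation factor eIF2. Phosphorylated eIF2 is also the hub of the integrated stress response, which other kinases reach without ER stress. It lowers general translation and favours that of ATF4, which induces CHOP (encoded by Ddit3), ATF3, TRIB3 and enzymes such as asparagine synthetase. Much of this signalling acts on splicing, cleavage, phosphorylation and translation. The values here are gene-level RNA and hold none of those steps, so spliced Xbp1 was not analysed here.

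The libraries held 16746085, 16400328 and 17109734 recovered reads. Read ratios are taken per library size as the FPKM values imply it. That of PS19 Zbp1+/- was the smallest at 15826984, against 17253479 in WT and 17287957 in PS19. Its recovered reads were nevertheless the most of the libraries and exceeded its implied size. Its bare read numbers thus run low against the implied sizes and high against the recovered reads, so comparisons with it depend on the scaling. The targeted gene, Zbp1, had 5, 91 and 0 reads, where a count of 0 allows up to 3 reads, and these reads do not settle the heterozygous label. The PS19 Zbp1+/- library had 711 reads of the Y-linked Ddx3y and 0 of Xist, and the other libraries had 0 reads of Ddx3y and at least 11062 of Xist, so genotype and sex cannot be told apart in comparisons with it. Neuronal markers were present in every library, with summed FPKM (fragments counted for each kilobase of a gene after scaling for depth) over 5 markers of 655, 557 and 829. The 5 astrocyte markers summed to 208, 953 and 218, the 5 microglial markers to 35.8, 91.9 and 46.7, and the 5 oligodendrocyte markers to 685, 1210 and 434. All 15 of these glial markers were higher in PS19 than in either other library. The 5 choroid plexus markers summed to 3109, 1899 and 10.4, and the 5 endothelial markers to 37.2, 40.1 and 54.0. Of 5 plasma and B cell markers, Ms4a1 was at 0 in every library, and the list summed to 10.3, 26.5 and 4.45, most of it Ighm. In such bulk RNA, fewer cells of a type and less RNA per cell cannot be told apart.

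To show the regulatory sequence that these genes carry, the 250 bases upstream of each RefSeq gene start (GRCm38.p6) were searched on both strands for 4 elements. These were the C/EBP-ATF element TGATGNAA, which ATF4 and its partners bind, the ER stress element (CCAAT, any 9 bases, then CCACG), the ER stress element II (ATTGG, any base, then CCACG), and the unfolded protein response element TGACGTGG. RefSeq upstream sequence was matched for 9 of the 10 genes, all but Atf6. Atf3, Asns and Herpud1 held the C/EBP-ATF element, which 3.45% of all 32851 promoters of that length hold. Herpud1 also held the ER stress element II, found in 0.0304% of promoters. None of the 9 held a whole ER stress element (0.113% of promoters) or the unfolded protein response element (0.563%) in these bases. The Herpud1 sequence ends in CCAAT, 9 bases and CCAC. Whether it completes an ER stress element depends on the next base, which was not searched. The sequences are printed 5′ to 3′ on the gene's strand and end at the base before the gene start. Capitals mark the matched letters. The Atf3 sequence is chr1:191183334-191183583 (minus strand), that of Asns chr6:7693210-7693459 (minus strand) and that of Herpud1 chr8:94386179-94386428 (plus strand).
Atf3: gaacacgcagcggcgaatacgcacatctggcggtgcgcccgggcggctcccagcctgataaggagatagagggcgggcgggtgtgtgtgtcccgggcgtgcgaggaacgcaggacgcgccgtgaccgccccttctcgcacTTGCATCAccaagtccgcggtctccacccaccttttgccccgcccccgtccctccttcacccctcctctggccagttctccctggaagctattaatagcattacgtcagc
Asns: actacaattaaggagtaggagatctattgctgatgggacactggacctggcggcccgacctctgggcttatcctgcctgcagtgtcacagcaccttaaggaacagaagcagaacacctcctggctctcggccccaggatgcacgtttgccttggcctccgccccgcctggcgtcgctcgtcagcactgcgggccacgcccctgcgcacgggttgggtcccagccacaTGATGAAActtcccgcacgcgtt
Herpud1: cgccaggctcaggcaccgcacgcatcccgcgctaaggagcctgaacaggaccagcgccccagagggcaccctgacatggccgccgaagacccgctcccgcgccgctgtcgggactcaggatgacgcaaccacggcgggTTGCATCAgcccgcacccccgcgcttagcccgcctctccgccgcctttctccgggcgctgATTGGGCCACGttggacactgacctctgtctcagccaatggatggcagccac
The C/EBP-ATF match lay 110 to 103 bases upstream of the start in Atf3, 23 to 16 in Asns and 112 to 105 in Herpud1. It read TTGCATCA on the gene's strand in Atf3 and Herpud1, and TGATGAAA in Asns. The Herpud1 ER stress element II, ATTGGGCCACG, lay 52 to 42 bases upstream. The RefSeq start of Atf3 lies 34706 bases inside the gene as the table bounds it, and the Asns and Herpud1 starts lie 45 and 9 bases from the table's. These are letter matches and not measured binding. The 3 genes with the C/EBP-ATF element did not all share a pattern. Atf3 and Herpud1 were both lowest in PS19 Zbp1+/-, with Atf3 highest in PS19 and Herpud1 highest in WT. Asns was lowest in PS19.

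The genes spanned a wide range of expression, and their order was nearly the same in the 3 libraries. Per length, Atf4 was the most abundant in each library, at an FPKM of 61.3, 47.7 and 44.2. Asns, Xbp1 and Herpud1 followed between 20.96 and 39.0, and the PS19 values of Asns (28.6) and Herpud1 (28.2) lay too close to rank with 1 library. Ddit3 lay between 9.66 and 14.04, Atf6 between 6.18 and 7.78, Eif2ak3 between 4.23 and 4.76, and Ern1 between 1.45 and 2.80. Atf3 and Trib3 were the least abundant, and Trib3 stayed under an FPKM of 1 in every library. WT was the highest library for 5 of the 10 genes (Atf4, Ddit3, Asns, Xbp1 and Herpud1) and PS19 for the other 5 (Atf3, Trib3, Atf6, Ern1 and Eif2ak3). PS19 Zbp1+/- was the lowest library for 8 of 10, all but Asns and Xbp1. Among the 12875 protein-coding genes that reached an FPKM of 1 anywhere, PS19 Zbp1+/- was the lowest for 36.2% and the highest for 40.1%. WT was the highest for 29.3% of these genes and PS19 for 30.6%.

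**Figure D1:**
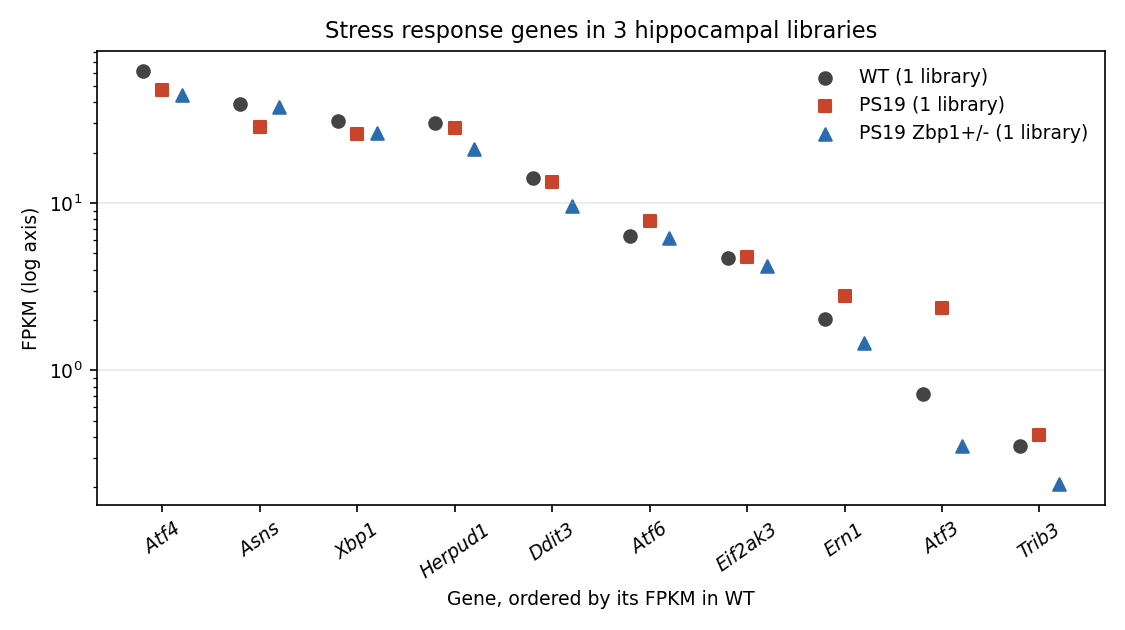
FPKM of each of the 10 genes (log axis) in WT, PS19 and PS19 Zbp1+/-, 1 point per library and no error bars because each group is 1 library. The points of most genes lie close together, and Atf3 stands apart with 2.36 in PS19 against 0.727 in WT and 0.352 in PS19 Zbp1+/-.

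Of the ER sensors, Ern1 and Atf6 were highest in PS19 and Eif2ak3 was nearly level between PS19 and WT. Ern1 (ENSMUSG00000020715; GRCm38 chromosome 11, 106394650 to 106487852, minus strand), which encodes IRE1alpha, was measured at an FPKM of 2.02, 2.80 and 1.45, from 285, 395 and 188 reads. PS19 was thus the highest library and PS19 Zbp1+/- the lowest. The ratio of reads per library size was 1.38 for PS19 over WT (1.18 to 1.62, the 95% interval by the exact Clopper-Pearson method, as for all ratios below). It was 0.520 for PS19 Zbp1+/- over PS19 (0.435 to 0.620) and 0.719 for PS19 Zbp1+/- over WT (0.595 to 0.868). Atf6 (ENSMUSG00000026663; chromosome 1, 170704674 to 170867771, minus strand) was measured at 6.34, 7.78 and 6.18 FPKM, from 1009, 1242 and 903 reads. PS19 stood above both other libraries, which lay close to each other. The Atf6 read ratio was 1.23 for PS19 over WT (1.13 to 1.34), 0.794 for PS19 Zbp1+/- over PS19 (0.728 to 0.866) and 0.976 for PS19 Zbp1+/- over WT (0.891 to 1.07). Eif2ak3 (ENSMUSG00000031668; chromosome 6, 70844515 to 70905245, plus strand), the PERK gene, had an FPKM of 4.68, 4.76 and 4.23, and the intervals of all 3 of its read ratios held 1. Its ratio was 1.02 for PS19 over WT (0.895 to 1.15), 0.888 for PS19 Zbp1+/- over PS19 (0.776 to 1.01) and 0.902 for PS19 Zbp1+/- over WT (0.789 to 1.03). The place of PS19 Zbp1+/- depended on the scaling. PS19 Zbp1+/- minus PS19 was -0.14 on the log2(FPKM + 1) scale, -0.29 by total reads and -0.37 with the same FPKM sum. PS19 Zbp1+/- minus WT was -0.12, -0.25 and -0.25 under the same settings. The glial marker sums given above were also highest in PS19, and their part in the Ern1 and Atf6 values was not tested.

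Xbp1 (ENSMUSG00000020484; chromosome 11, 5520659 to 5525893, plus strand), the target of IRE1, was highest in WT. Its FPKM was 31.0, 25.7 and 26.3, from 1739, 1444 and 1353 reads. Both PS19 libraries thus lay below WT and close to each other. The read ratio was 0.829 for PS19 over WT (0.772 to 0.889) and 0.848 for PS19 Zbp1+/- over WT (0.789 to 0.911). For PS19 Zbp1+/- over PS19 it was 1.02 (0.9496 to 1.10), and the sign of this small difference turned negative under 3 other scalings (same FPKM sum, total reads, median ratio). Unlike Xbp1, its upstream splicing enzyme Ern1 was higher in PS19 than in WT. The difference between the genes was not tested.

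Atf4 (ENSMUSG00000042406; chromosome 15, 80255184 to 80257541, plus strand), the central factor of the integrated stress response, was highest in WT with 2492 reads, against 1943 in PS19 and 1649 in PS19 Zbp1+/-. The PS19 to WT read ratio was 0.778 (0.733 to 0.826), with 0.927 for PS19 Zbp1+/- over PS19 (0.868 to 0.990) and 0.721 for PS19 Zbp1+/- over WT (0.677 to 0.768). Both PS19 libraries were therefore below WT under each scaling tried, and which step was the larger depended on the scaling. On the log2(FPKM + 1) scale PS19 minus WT was -0.36 and PS19 Zbp1+/- minus PS19 was -0.11, against -0.23 and -0.39 with the same FPKM sum. ATF4 protein is set largely by translation, which these values do not hold.

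Ddit3 (ENSMUSG00000025408; chromosome 10, 127290774 to 127296288, plus strand) encodes CHOP, a factor tied to cell death under lasting ER stress. Its FPKM was 14.04, 13.4 and 9.66, from 415, 398 and 262 reads. WT and PS19 lay together and PS19 Zbp1+/- below both. The read ratio was 0.957 for PS19 over WT, with an interval of 0.832 to 1.10 that holds 1, and its sign turned when the libraries were rescaled to the same FPKM sum. It was 0.719 for PS19 Zbp1+/- over PS19 (0.613 to 0.843) and 0.688 for PS19 Zbp1+/- over WT (0.587 to 0.805). The gene overlaps Mars on the opposite strand, which had 1007, 994 and 1037 reads in the 3 libraries, and without a stated strand setting reads of the overlap cannot be told apart.

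Atf3 (ENSMUSG00000026628; chromosome 1, 191170296 to 191218039, minus strand), a stress-induced factor that is low in most unstressed tissues, differed most of the 10 genes. WT had 27 reads of it, PS19 88 and PS19 Zbp1+/- 12, which correspond to an FPKM of 0.727, 2.36 and 0.352. PS19 stood above both other libraries. The read ratio was 3.25 for PS19 over WT (2.09 to 5.21), 0.149 for PS19 Zbp1+/- over PS19 (0.0742 to 0.274) and 0.484 for PS19 Zbp1+/- over WT (0.224 to 0.989). Adding 1 to the FPKM before taking log2 shrinks the differences of such a weakly expressed gene. On that scale PS19 minus WT was 0.96 and PS19 Zbp1+/- minus PS19 was -1.31. The former lay just under the 2-fold threshold of 1 log2 unit, and passed it with a pseudocount of 0.1 (1.58) or 0.5 (1.22) in place of 1. These differences rank Atf3 at the 97.7th percentile of genes for PS19 minus WT and at the 2.58th percentile for PS19 Zbp1+/- minus PS19. The PS19 Zbp1+/- library held reads for fewer genes (21408, against 24741 and 25397), and the part of this in its low Atf3 count was not tested.

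The 5 protein-coding genes with values nearest to those of Atf3 over the 3 libraries, by Euclidean distance of centred log2(FPKM + 1) among 12874 genes, were Ccl9, Opalin, Tcirg1, S100a9 and Ngp. Ccl9, a chemokine gene, had 41, 130 and 19 reads, at a distance of 0.0004 log2 units. Opalin, a myelin membrane gene, had 252, 513 and 173 reads, at a distance of 0.017. Tcirg1, a proton pump subunit gene, had 311, 666 and 213 reads. The neutrophil genes S100a9 and Ngp had 7, 23 and 3, and 5, 29 and 0 reads. The measure selects genes with this order of libraries, and with 3 libraries many genes share it. All 5 microglial and all 5 oligodendrocyte markers were likewise highest in PS19, and their part in the Atf3 values was not tested.

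Among the targets, Asns (ENSMUSG00000029752; chromosome 6, 7675169 to 7693254, minus strand), which makes asparagine and is a standard readout of ATF4, was lowest in PS19. Its FPKM was 39.0, 28.6 and 37.5, from 1841, 1352 and 1624 reads. PS19 was the lowest library under each scaling tried, while the place of PS19 Zbp1+/- depended on the scaling. PS19 Zbp1+/- minus PS19 was 0.38 on the log2(FPKM + 1) scale, 0.20 by total reads and 0.10 with the same FPKM sum. PS19 Zbp1+/- minus WT was -0.06, -0.21 and -0.21 under the same settings. The read ratio was 0.733 for PS19 over WT (0.683 to 0.787), 1.31 for PS19 Zbp1+/- over PS19 (1.22 to 1.41) and 0.962 for PS19 Zbp1+/- over WT (0.899 to 1.03). Asns was the only one of the 10 genes whose interval for PS19 Zbp1+/- over PS19 lay above 1.

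Herpud1 (ENSMUSG00000031770; chromosome 8, 94386438 to 94395377, plus strand), an ER membrane protein of the degradation pathway, had 1213, 1139 and 774 reads. Like Ddit3, it was lowest in PS19 Zbp1+/- and close to level between the other libraries. PS19 over WT gave a read ratio of 0.937 (0.864 to 1.02), and the sign of this difference turned when the libraries were rescaled to the same FPKM sum. The ratio was 0.742 for PS19 Zbp1+/- over PS19 (0.677 to 0.814) and 0.696 for PS19 Zbp1+/- over WT (0.635 to 0.762). Trib3 (ENSMUSG00000032715; chromosome 2, 152337422 to 152344032, minus strand), a pseudokinase induced by ATF4 and CHOP, had 13, 15 and 7 reads. All 3 of its intervals held 1, from 0.511 to 2.63 for PS19 over WT and from 0.176 to 1.33 for PS19 Zbp1+/- over PS19, so a difference was not detectable at this depth.

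**Figure D2:**
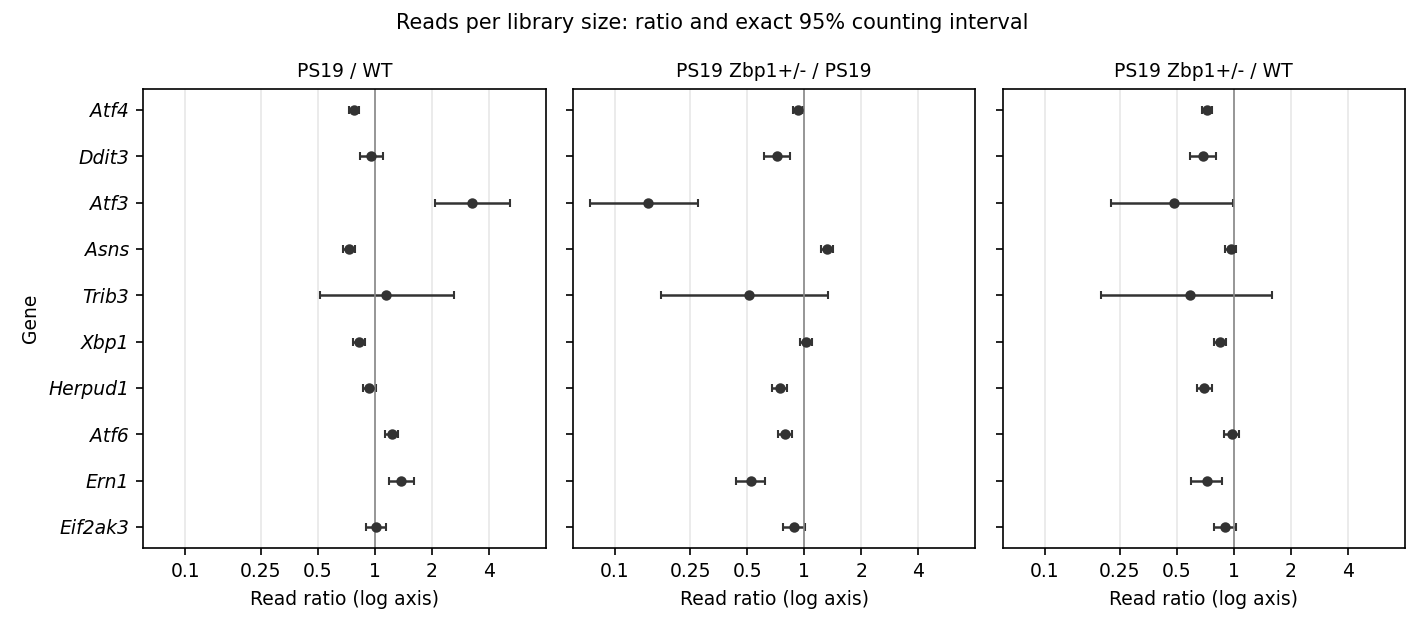
Ratio of reads per library size for each of the 10 genes (log axis), with exact 95% intervals for counting error, for PS19 over WT, PS19 Zbp1+/- over PS19 and PS19 Zbp1+/- over WT. Atf3 lies at 3.25 and 0.149 in the left and middle panels, Trib3 has the widest intervals, and no gene lies above 1 in the right panel.

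Read as a group, the 10 genes differed little between PS19 and WT. In that comparison 9 of them reached an FPKM of 1 in either library, and 0 differed by 2-fold or more on the log2(FPKM + 1) scale, against 2.5% of 12703 protein-coding genes. The median difference was -0.06, beside -0.03 over all genes tested, and both turned positive (0.06 and 0.08) after rescaling to the same FPKM sum. The read ratio interval lay above 1 for 3 genes (Atf3, Atf6 and Ern1) and below 1 for 3 (Atf4, Asns and Xbp1). Of all genes tested, 28.3% had an interval above 1 and 32.7% below, so these counts were close to the background.

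In PS19 Zbp1+/- against PS19, 1 of 9 genes (Atf3) was at least 2-fold lower and 0 were 2-fold higher, against 7.16% of 12772 genes called in either direction. The median difference was -0.29, beside 0.04 over all genes tested. The read ratio interval lay below 1 for 6 of the 9 (Atf4, Ddit3, Atf3, Herpud1, Atf6 and Ern1) and above 1 for Asns alone. The matching shares of all genes were 32.6% below 1 and 39% above. Scaling by total reads moved the median of all genes to -0.12 and that of the 10 to -0.45. PS19 enters both this comparison and that with WT.

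Between PS19 Zbp1+/- and WT, 8 genes entered, since Atf3 and Trib3 were under an FPKM of 1 in both libraries, and 0 differed by 2-fold, against 3.35% of 12436 genes. All 8 were lower in PS19 Zbp1+/- under each scaling tried, with differences from -0.50 (Herpud1) to -0.03 (Atf6) and a median of -0.26, beside 0.01 over all genes. Of all genes, 49% were lower, and 63.1% with the same FPKM sum and 63% by total reads. The interval lay below 1 for 5 of the 8 (Atf4, Ddit3, Xbp1, Herpud1 and Ern1) and above 1 for none, against 31.3% and 35.3% of all genes. The choroid plexus markers given above were almost absent from PS19 Zbp1+/-, and their part in these values was not tested.

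The wider pathway was described by 85 further genes in 5 lists. Between PS19 and WT, 78 were tested, of which 1 was at least 2-fold higher and 0 lower, where 2.5% of all genes were called. The median was -0.06 (0.06 with the same FPKM sum). These calls are on the log2(FPKM + 1) scale, which shrinks the differences of weakly expressed genes. Aldh1l2, of the ATF4 and CHOP target list, had 37, 164 and 63 reads and fell short of 2-fold on that scale (0.82). Its read ratio for PS19 over WT was nevertheless 4.42 (3.08 to 6.50). The gene past 2-fold was Eif2ak2, which encodes PKR, the kinase of eIF2 that senses double-stranded RNA and is induced by interferon. PS19 held 328 of its reads, WT 87 and PS19 Zbp1+/- 109. PS19 stood well above both other libraries, with a read ratio of 3.76 over WT (2.96 to 4.82) and of 0.363 for PS19 Zbp1+/- over PS19 (0.290 to 0.452). The other eIF2 kinases were closer to level. Eif2ak1, the heme-regulated kinase, had 1108, 1061 and 1136 reads, and Eif2ak4, the amino acid sensor GCN2, had 479, 522 and 565. Eif2ak3, described above, completes the family, so PKR was the only one of the 4 kinase genes with a 2-fold difference. Ppp1r15a, whose product GADD34 directs dephosphorylation of eIF2, had 285, 222 and 193 reads. Over the 12 genes of eIF2 kinases and machinery the median was -0.16 between PS19 and WT. It was 0.06 between PS19 Zbp1+/- and PS19, which turned to -0.16 with the same FPKM sum and -0.08 by total reads. The glial marker sums were also highest in PS19, and their part in the Eif2ak2 values was not tested.

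The ER chaperone and folding list was mostly lower in PS19 than in WT, in 13 of 16 genes, with a median of -0.18 and none past 2-fold. Of all genes, 53.7% were lower. With the same FPKM sum 10 of the 16 were lower, against 38.2% of all genes. Between PS19 Zbp1+/- and PS19, 8 of the 16 were lower, and 14 by total reads, against 46.3% and 62.1% of all genes. Hspa5, the chaperone BiP that holds the sensors inactive, had 5833, 4327 and 3349 reads. It was thus highest in WT and lowest in PS19 Zbp1+/-, with a read ratio of 0.740 for PS19 over WT (0.712 to 0.770) and 0.626 for PS19 Zbp1+/- over WT (0.5997 to 0.653). Dnajb9, a co-chaperone induced by spliced XBP1, had 808, 688 and 660 reads, at FPKM values of 18.4, 15.6 and 16.4. WT was highest under each scaling tried, but which PS19 library was lowest depended on the scaling. Rescaled to the same FPKM sum, the Dnajb9 step from PS19 to PS19 Zbp1+/- moved from 0.06 to -0.21 log2 units, and by total reads to -0.11. Hyou1, another ER chaperone, took a different course with 2103, 1993 and 2714 reads, highest in PS19 Zbp1+/-.

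Of the 85 pathway genes, 77 were tested between PS19 Zbp1+/- and PS19. On the log2(FPKM + 1) scale 0 were at least 2-fold higher and 3 just past 2-fold lower (Eif2ak2, Nupr1 and Slc7a11). Of all genes, 7.16% were called. With the same FPKM sum, by total reads and with the median ratio set to 1, 4 were lower. The median was -0.06, and 0.02 over the genes with a mean FPKM of at least 5. Nupr1, a stress-induced chromatin protein, had 76, 103 and 27 reads. Slc7a11, the cystine transporter and an ATF4 target, had 871, 1133 and 394 reads. Both were lowest in PS19 Zbp1+/-. Chac1, a glutathione-degrading target of ATF4 and CHOP, was highest there instead, with 128, 123 and 205 reads and a read ratio of 1.82 over PS19 (1.45 to 2.30). For PS19 Zbp1+/- over PS19 the read ratios of Eif2ak2, Nupr1 and Slc7a11 were 0.363, 0.286 and 0.380. Aldh1l2 (0.420) and Cebpb (0.472) were also past 2-fold lower by that ratio, and Slc7a3 (2.09) past 2-fold higher. Between PS19 Zbp1+/- and WT, 1 of 77 was called lower by 2-fold and 0 were higher, against 3.35% of all genes called. That gene, Cebpb, a partner of ATF4, had 467 reads in WT and 177 in PS19 Zbp1+/-, a read ratio of 0.413 (0.346 to 0.492). The read ratios of Nupr1 (0.387, 0.240 to 0.608) and Slc7a11 (0.493, 0.437 to 0.556) over WT were also past 2-fold lower. Neither was called on the log2(FPKM + 1) scale (-0.71 and -0.73).

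The target list of ATF4 and CHOP held 33 genes, of which 29 were tested between PS19 and WT, with 13 higher, 16 lower and a median of -0.04, where 53.7% of all genes were lower. With the same FPKM sum 19 were higher and 10 lower, where 38.2% of all genes were lower. For PS19 Zbp1+/- against PS19, 28 were tested, with 12 higher, 16 lower and a median of -0.15, where 46.3% of all genes were lower. By total reads 9 were higher and 20 lower (median -0.29), and with the same FPKM sum 7 and 22 (median -0.38), where 62.1% and 70.1% of all genes were lower. Psat1 and Phgdh, which make serine, had 2132, 2615 and 1577, and 1854, 1792 and 1317 reads. Both of these were lowest in PS19 Zbp1+/-. Sesn2 and Ddit4, stress-induced inhibitors of mTORC1, had 408, 451 and 357, and 1225, 1135 and 852 reads. The degradation list had a median of -0.01 between PS19 and WT over 12 genes tested, and -0.16 between PS19 Zbp1+/- and PS19. The list of sensor processing and related factors, with 9 genes tested, had medians of -0.01 and 0.02. With the same FPKM sum the PS19 minus WT medians of the target, degradation and sensor lists turned to 0.08, 0.11 and 0.10, and the sensor list turned to -0.24 between PS19 Zbp1+/- and PS19. By total reads those of the degradation and sensor lists turned to 0.02 and 0.01, and the sensor list to -0.15 in the latter comparison. Setting the median ratio to 1 turned the same 3 signs.

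**Figure D3:**
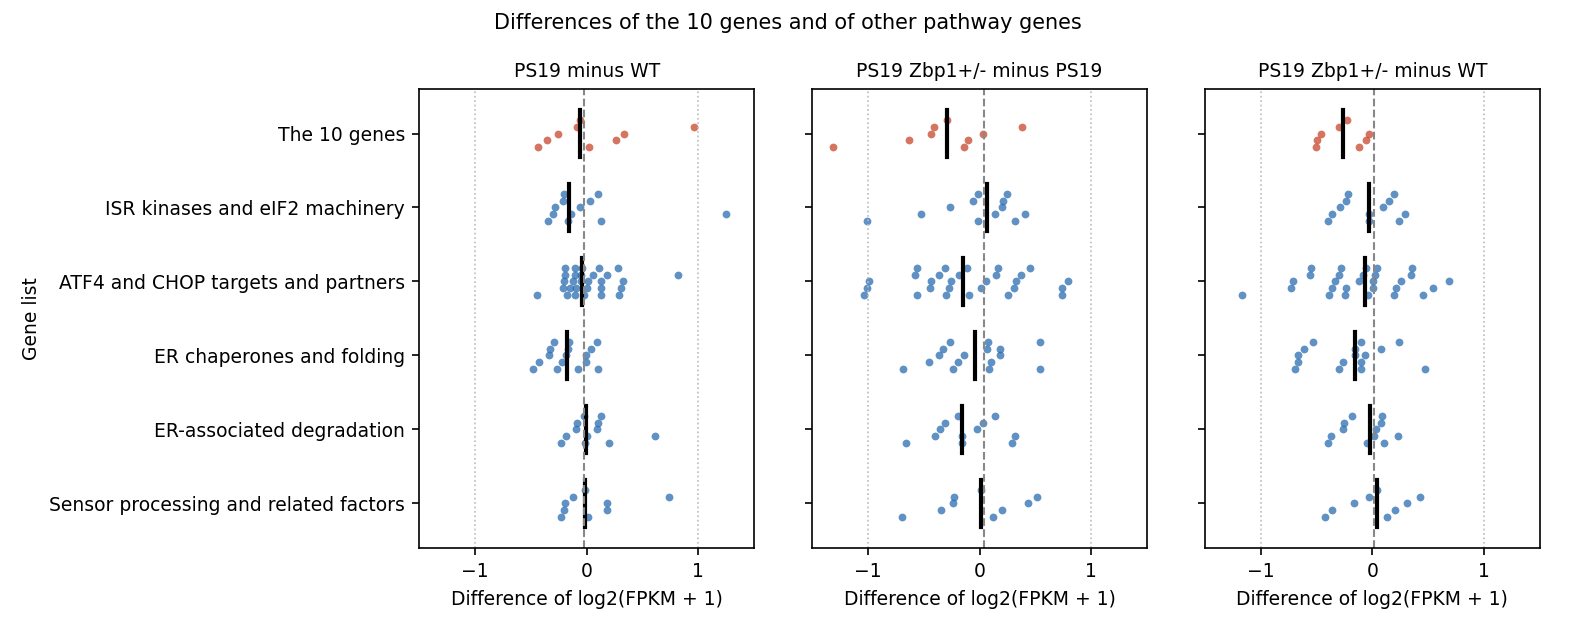
Difference of log2(FPKM + 1) for each gene that reached an FPKM of 1 in the libraries compared (points), for the 10 genes and 5 lists of other pathway genes, in the 3 comparisons. Black bars are list medians, the dashed line is the median of all protein-coding genes and dotted lines mark 2-fold, and the medians of the 10 genes lie at -0.06, -0.29 and -0.26 from left to right.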

How the data were processed

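Hippocampal RNA of 3 libraries was measured by RNA-seq. The authors deposited FPKM values per gene. Per the submitters' processing notes, Trim Galore 0.6.5, STAR 2.5.3a, featureCounts 2.0.4 and the build mm39 were named, with no role. Gene positions nevertheless matched GENCODE M21 (GRCm38) for 98.3% of 54495 gene IDs and for all 10 genes, and are given as GRCm38. The deposited gene length, in bases, served to recover whole reads: FPKM times length was a whole multiple (tolerance 0.01) of 1 step per library in 100% of values. Strandedness was not given in the sources used here. All sample columns were used.

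Differences are of log2(FPKM + 1), called at 2-fold, over protein-coding genes that reached an FPKM of 1 in the pair compared. Read ratios use the library sizes the steps imply (17253479, 17287957 and 15826984), with exact 95% intervals. They compare libraries and not conditions. No p-value was computed. The 10 genes and the lists were chosen with earlier results of these data known. Genes named were the 10, 12 others fixed by name, every pathway gene called at 2-fold, and the 5 nearest to the gene with the widest range. Aldh1l2 and Slc7a3 were added for their read ratios. BLAST 2.17.0 found near-identical transcripts (90% identity) for Eif2ak3 alone (Gm43292, 3 to 5 reads). On simulated PS19 and WT libraries of 54532 genes, all 200 genes changed 4-fold were called, and 3 of 12185 unchanged genes. The simulation held counting error only, with no variation between animals. Its changed genes all had an expected FPKM of at least 5 and at least 200 expected reads. It therefore checks the calculation, and gives no error rate for these libraries or for weakly expressed genes such as Atf3. Alternatives were pseudocounts, filters, scalings, thresholds, read ratios and all biotypes. Figures were drawn with matplotlib 3.10.9, and calculations used scipy 1.17.1, pandas 2.3.3 and numpy 2.4.6 under Python 3.11.15.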

Additional observations from a re-analysis of the deposited data

How the results depend on the processing

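No paired analysis was possible because each genotype is 1 library, and for the same reason no replicate could be left out. Between PS19 and WT, 1 of the 10 genes (Atf3) passed 2-fold, in place of 0, with a pseudocount of 0.1 or 0.5, with the same FPKM sum, and as a read ratio with at least 3 reads, and 1 passed at 1.5-fold. The median of the 10 turned to 0.061 and that of the pathway list to 0.057 with the same FPKM sum. Between PS19 Zbp1+/- and PS19, the count of 1 went to 0 with a mean FPKM of at least 5, which leaves Atf3 out, to 0 at 4-fold and to 2 at 1.5-fold. The median of the 10 was -0.54 with the same FPKM sum and -0.45 by total reads. The pathway median was -0.30 and -0.21 under these, and turned to 0.016 with a mean FPKM of at least 5. Over all genes in this comparison 255 were higher and 659 lower, against 119 and 1015 with the same FPKM sum and 147 and 858 by total reads. Between PS19 Zbp1+/- and WT no count or median of the 10 moved beyond the limits set. Of 450 values of single named genes, 436 kept their sign and 75 moved by more than the half-width of their counting interval. Depth limits Trib3 and Atf3 most.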
